A study of Canis lupus familiaris with 26 samples.

Results

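MMP2, TIMP3 and ADAMTS12 are 3 genes of extracellular matrix turnover, followed here in the stroma of simple mammary adenomas of dogs, which are benign tumours of glandular epithelium. They were taken by symbol from a table of 18466 genes, in which their identifiers are ENSCAFG00000009421, ENSCAFG00000029189 and ENSCAFG00000018844. All 3 were chosen by their counts in tumour against normal stroma of these same samples, so that their values in that comparison are given as a description, without a test. MMP2 encodes gelatinase A, a secreted metalloprotease that cleaves denatured collagen and basement membrane collagen. TIMP3 encodes an inhibitor of metalloproteases that, unlike the other members of its family, stays bound to the matrix and also blocks several ADAM and ADAMTS proteases. ADAMTS12 encodes a secreted protease with thrombospondin motifs that can cleave the cartilage matrix protein COMP. In connective tissue the balance between such proteases and their inhibitors governs how fast matrix is broken down.

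Both groups came from spontaneous simple adenomas of female dogs, removed at curative surgery, fixed in formalin and embedded in paraffin (FFPE). One group was stroma next to the adenoma (adenoma-associated stroma, AAS) and the other was normal stroma next to unaltered mammary gland, and both were cut by laser capture from the same slides, so that each dog gave 1 sample of each. Stroma from dogs without a tumour was not analysed here. RNAseq counts of 13 pairs were given, and 12 pairs (24 samples) were compared, since the study left out pair 14, whose normal stroma sample held 83727 counts. The 12 dogs were 6 to 13 years old, and their blocks had been stored for 4 to 29 months. These ages are those of the study's case table, with cases taken in the order of the pair numbers. Cases and pairs are numbered differently, and the study does not state how they match.

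Total counts ranged from 759119 to 1602797 in normal stroma and from 419770 to 1614120 in AAS. Several AAS samples were shallow. In the AAS sample of pair 7, 1 gene took 84.9% of all counts, which left 93673 counts for all others. The AAS samples of pairs 10, 15 and 8 held 419770, 480753 and 499178 counts. A count of 3, used as the floor below which no level is read, was worth 1.53 to 6.37 CPM in normal stroma and 1.53 to 28.0 CPM in AAS. CPM is the count scaled to the library size after TMM normalisation. Of the fibroblast markers, VIM, PDGFRA, COL1A1, COL1A2, COL3A1 and THY1 were all detected, and none was absent from a whole group. Epithelial EPCAM was also present, at 42.3 ± 41.6 CPM in normal stroma and 43.7 ± 15.5 CPM in AAS (mean ± SD, n = 12), so that both captures held some epithelial RNA.

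MMP2 was lower in AAS than in the normal stroma of the same dog in 12 of 12 pairs. Its level in normal stroma was 138 CPM at the lowest, 248 CPM at the median and 560.0 CPM at the highest. In AAS the lowest was 0, the median 78.1 CPM and the highest 412 CPM. Thus 10 of 12 AAS samples lay below every normal stroma sample, and those of pairs 6 and 9 lay within the normal range, so that the groups overlapped. The mean was 283 ± 128 CPM in normal stroma against 110.2 ± 115 CPM in AAS (± SD, 12 samples each). Relative to the mean, the spread between dogs was 45.2% in normal stroma and 104% in AAS. The fitted log2 fold change was -1.33 (SE 0.40), and it was -1.75 (SE 0.35) with the pair as a block. For reference, 0.99% of all 4544 genes tested were lower in AAS in all 12 pairs, and 0.176% had AAS values that all lay below normal stroma, as none of the members did. Over all genes, 1.8% passed the threshold (adjusted p below 0.05 and a log2 fold change beyond 1), and 2.53% did with the block.

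The size of the MMP2 difference was uneven between dogs. In pair 9 the normal stroma held 431 CPM and the AAS 412 CPM, a difference of -0.06 on the log2 scale. In pair 6 the values were 364 and 259 CPM. In these dogs the tumour and normal stroma differed least in MMP2.

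At the other end, MMP2 was 560.0 CPM in the normal stroma of pair 11 and 96.6 CPM in its AAS, 5.80-fold lower. In pair 15 it was 372 CPM and 13.4 CPM, 27.8-fold lower, with 7 counts in the AAS sample. In pair 10 it was 163 CPM and 0, at least 15.6-fold lower when set against the floor. Pairs 10 and 15 are also the pairs whose AAS samples had the lowest total counts, and the part of depth in these folds was not tested. Pair 8 came next with 499178 counts in AAS, and its MMP2 was 4.49-fold lower. Pair 7, whose AAS library was the smallest after TMM scaling, had MMP2 1.85-fold lower. Without pair 10 the fitted log2 fold change was -1.27, without pair 15 it was -1.18, and without pair 7 it was -1.37.

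The remaining 7 pairs lay between these, with 1.85- to 4.69-fold lower MMP2 in AAS. In pair 7 the fold of 1.85 rests on 8 counts in AAS. Over all 12 pairs the log2 difference had a median of -1.34 and a mean of -2.02 ± 1.83 (SD), and pairs 10 and 15 held the largest differences.

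TIMP3 was lower in AAS in 12 of 12 pairs as well, and by a more even amount. In normal stroma it ranged from 344 CPM through a median of 593 CPM to 844 CPM. In AAS it ranged from 65.4 CPM through a median of 126 CPM to 486 CPM. Again 10 of 12 AAS samples lay below every normal stroma sample, and 7 of 12 normal stroma samples lay above every AAS sample. The exceptions in AAS were pairs 3 and 9, with 486 and 393 CPM. The means were 581 ± 181 CPM and 183 ± 134 CPM (SD, n = 12), and no AAS sample was at 0. The fitted log2 fold change was -1.64 (SE 0.27), and -1.86 (SE 0.20) with the block.

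Pair 15 had the widest TIMP3 difference, from 747 CPM to 99.3 CPM, 7.52-fold lower. Pair 13 followed with 669 and 126 CPM, 5.32-fold lower, and pair 8 with 797 and 151 CPM, 5.29-fold lower. Pair 3 differed least, at 602 CPM in normal stroma and 486 CPM in AAS, 1.24-fold lower. The dog that differed least in TIMP3 was thus not one of those that differed least in MMP2, which in pair 3 was 263 and 56.1 CPM, 4.69-fold lower. Over the 12 pairs the log2 difference of TIMP3 averaged -1.86 ± 0.69 (SD), with a median of -1.91.

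ADAMTS12 was the sparse member, and its difference ran the other way. In normal stroma it had 0 to 17 counts per sample, with a median of 2 and 6 of 12 samples at 0. In AAS it had 0 to 59 counts, with a median of 16 and 3 of 12 samples at 0. In CPM this was 0 to 19.6 with a median of 1.02 in normal stroma, and 0 to 113 with a median of 11.9 in AAS. The 24 values overlapped widely, and 2 AAS samples, those of pairs 11 and 15, lay above the highest normal stroma sample. ADAMTS12 was higher in AAS in 9 pairs, lower in pairs 3 and 10, and at 0 in both samples of pair 7, where 3 counts in AAS would be 28.0 CPM and a level under that was not detectable.

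In single dogs, ADAMTS12 was 5.12 CPM in the normal stroma of pair 15 and 113 CPM in its AAS (5 and 59 counts), 22.0-fold higher. In pair 11 it was 2.04 and 41.9 CPM (4 and 49 counts), 20.5-fold higher. In pairs 13, 12 and 6 normal stroma was at 0 and AAS had 26, 15 and 23 counts, at least 9.08-, 6.55- and 5.57-fold higher. Pair 8 differed by 8 counts in AAS against 10 in normal stroma, which is 1.35-fold higher only after scaling for depth.

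The opposite case was pair 10, with 17 counts (19.6 CPM) in normal stroma and 0 in AAS, at least 1.86-fold lower. The AAS sample of pair 10 therefore listed 0 for both proteases while it held 32 counts of TIMP3. The mean of ADAMTS12 was 3.66 ± 5.72 CPM in normal stroma against 20.8 ± 31.1 CPM in AAS (± SD, 12 samples each), and without pair 15 the mean in AAS was 12.5 ± 12.1 CPM (n = 11). The gene did not pass the filter on low counts. A fit of the 7763 genes averaging 5 or more counts gave a log2 fold change of 2.44 (SE 0.85), and 3.06 (SE 1.13) with the block. In that fit 1.97% of all genes passed the threshold, and 2.36% with the block.

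**Figure D1:**
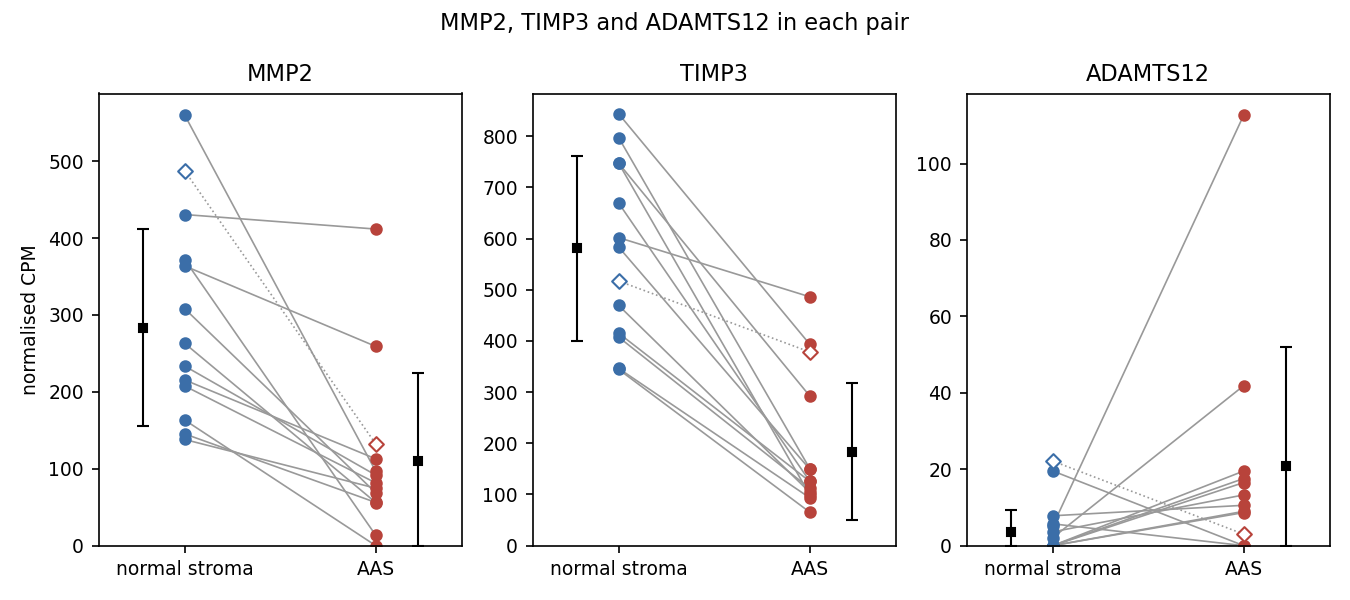
Normalised CPM (linear axes from 0) of MMP2, TIMP3 and ADAMTS12 in normal stroma (blue) and AAS (red), with a grey line joining the samples of 1 dog, black squares and bars for mean ± SD (n = 12, bars cut at 0), and open diamonds for pair 14, which was not compared. MMP2 and TIMP3 lines slope down in 12 of 12 pairs, while ADAMTS12 lines slope up in 9 pairs, led by pair 15 at 113 CPM.

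In pair 14, left out of the comparison, MMP2 was 487 CPM in normal stroma and 132 CPM in AAS, and TIMP3 was 517 and 378 CPM. Both were lower in AAS, as in the other pairs. ADAMTS12 had 3 counts in each sample, so no fold is given. The number of pairs in which each member was higher or lower was the same under TMM, RLE and total count scaling and without the 10 most abundant genes.

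The MMP2 to TIMP3 ratio was taken from the counts within each sample, without correction for transcript length, so it is comparable between samples but is not a ratio of molecules. In normal stroma the ratio was narrow, from 0.322 through a median of 0.419 to 1.05, and 11 of 12 samples were under 1. In AAS it ran from 0 through a median of 0.501 to 2.77, and 9 of 12 samples were under 1. Of the AAS samples, 2 lay above the normal range (pairs 6 and 7) and 3 below it (pairs 3, 10 and 15).

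On the log2 scale, with 0.5 added to each count, the ratio was -1.10 ± 0.49 in normal stroma against -1.28 ± 1.96 in AAS (± SD, 12 samples each). The ratio was higher in AAS in 8 pairs (4, 5, 6, 7, 8, 9, 12 and 13) and lower in 4 (3, 10, 11 and 15). The mean difference of -0.18 ± 1.88 was far smaller than its spread, the median difference was 0.49, and without pair 10 the mean turned to 0.23. In the AAS of pair 10, with 0 MMP2 counts, the log2 ratio of -6.02 depends on the 0.5 added. With 1 or 2 added to each count instead, the mean difference was -0.09 or -0.0012. No common direction of the ratio can therefore be given. The plot of the ratio by pair shows this as AAS points on both sides of their normal partners.

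Pair 6 had the highest ratios of both groups. It held 311 MMP2 and 296 TIMP3 counts in normal stroma, a ratio of 1.05 (exact binomial 95% interval 0.893 to 1.24), and 305 and 110 counts in AAS, a ratio of 2.77 (2.22 to 3.48). Pair 13 moved from 0.322 (0.284 to 0.365) to 0.898 (0.724 to 1.11). In these dogs TIMP3 differed by a larger factor than MMP2.

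Pair 3 showed the reverse, from 0.437 (0.373 to 0.512) to 0.115 (0.0887 to 0.148), and pair 11 went from 0.750 (0.693 to 0.811) to 0.330 (0.265 to 0.410). In pair 10, 0 MMP2 counts beside 32 of TIMP3 allow a ratio of up to 0.122. The intervals of the normal and AAS sample overlapped in pairs 7, 8 and 12, and in pair 7 the AAS interval ran from 0.362 to 3.70 on 8 and 7 counts. These intervals cover counting error only. In pair 14 the ratio was 0.943 in normal stroma and 0.349 in AAS.

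**Figure D2:**
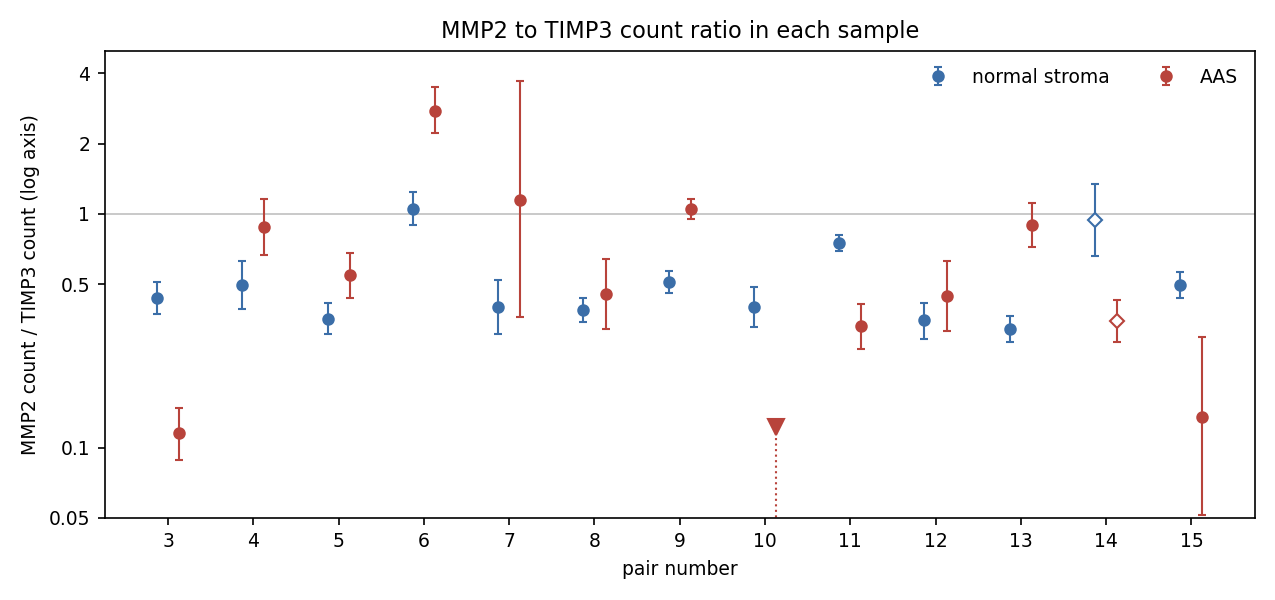
MMP2 count divided by TIMP3 count (log axis) in each sample, by pair number, with exact binomial 95% intervals for counting error. Normal stroma is blue and AAS red, the triangle for the AAS of pair 10 marks the upper limit of 0.122 for a ratio of 0, and open diamonds mark pair 14, which was not compared. Normal stroma stays between 0.322 and 1.05, while AAS runs from 0 to 2.77.

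In bulk samples of this kind, fewer cells of a type and less RNA per cell cannot be told apart. The summed level of the 6 fibroblast markers was 2158 to 21519 CPM in normal stroma (median 5197) and 783 to 7611 CPM in AAS (median 2644), and it was lower in AAS in 10 of 12 pairs. Set against this sum, MMP2 was lower in AAS in 6 pairs and higher in 6, with a mean log2 difference of -0.82 ± 2.02 and a median of -0.08. TIMP3 was lower in 9 and higher in 3, with a mean of -0.64 ± 1.35 and a median of -0.74. The sum is made up largely of collagen transcripts, and the markers did not move alike. VIM had a log2 fold change of -1.13 (SE 0.24, edgeR adjusted p = 0.0042), while PDGFRA had -0.44 (SE 0.31, adjusted p = 0.737) and THY1 had -0.39 (SE 0.24, adjusted p = 0.643).

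Markers of other cells were compared in the same way, as far as they had an identifier. The lists for basal epithelium and myoepithelium and for lymphocytes and plasma cells had none, so these cells were not assessed. The endothelial, adipocyte and epidermal lists had 1 of 6 genes each. The sum of EPCAM, CDH1 and KRT19, of luminal epithelium, was 90.3 to 238 CPM in normal stroma and 95.5 to 292 CPM in AAS, higher in 8 of 12 pairs. The sum of the smooth muscle genes ACTA2 and MYLK was 33.2 to 182 CPM and 37.3 to 376 CPM, higher in 10 of 12 pairs. ACTA2 alone averaged 48.7 and 92.2 CPM, higher in 10 of 12 pairs (log2 fold change 0.94, edgeR adjusted p = 0.444). ACTA2 does not mark smooth muscle alone. The study reads its rise in AAS, found in its own RNAseq fit and in the protein by immunofluorescence, as a sign of fibroblast activation. The study does not exclude myoepithelial cells in that staining, but favours stromal cells. The sum of 4 macrophage genes was 342 to 878 CPM and 317 to 1195 CPM, higher in 6 and lower in 6. These markers did not move alike either, since AIF1 was at 366 and 446 CPM on average, while CD163 (48.6 and 27.2 CPM), CSF1R (33.9 and 17.9 CPM) and MRC1 (184 and 134 CPM) had lower means in AAS, none past the threshold. The adipocyte gene LEP was at 0 in 10 normal and 9 AAS samples. The endothelial gene TEK reached 26.5 CPM in normal stroma and 28.2 CPM in AAS, and was lower in AAS in 7 pairs and higher in 4. The epidermal gene SPINK5 reached 121 and 11.2 CPM, with medians of 14.6 and 0.255 CPM. It was lower in AAS in 9 pairs and higher in 2, and at 0 in 3 normal and 6 AAS samples. Their part in the levels of MMP2, TIMP3 and ADAMTS12 was not tested.

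The other genes of matrix proteolysis were read from lists of proteases and inhibitors. Of 108 symbols, 26 had a known identifier, and 23 of these were not MMP2, TIMP3 or ADAMTS12. Of the 23, 18 passed the filter on low counts, and 1 of the 18 passed the threshold (5.56%), beside 3.78% of the 1853 tested genes with a symbol. Of the 18, 13 had a negative log2 fold change, and the median of the 18 was -0.65. Among the 1853 tested genes with a symbol the median was -0.05 and 51.9% were negative. The median of all tested genes was 0.01. Most other MMP and TIMP genes, among them MMP9 and TIMP1, had no identifier in these sources and were not analysed here.

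Among the close relatives of MMP2, MMP14, the membrane protease that activates it, was 66.0 ± 46.6 CPM in normal stroma and 37.8 ± 21.6 CPM in AAS (log2 fold change -0.78, edgeR adjusted p = 0.481). MMP19 was at 14.8 and 4.58 CPM, lower in 11 of 12 pairs, and was removed by the filter. MMP14 did not pass the threshold. In the edgeR fit on a mean of 5 counts the adjusted p of MMP19 was 0.309, and 0.518 with the block.

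Among the inhibitors related to TIMP3, TIMP2, which takes part in MMP2 activation as well as its inhibition, was 92.3 ± 30.7 and 45.4 ± 26.0 CPM, lower in 10 of 12 pairs (log2 fold change -0.98, edgeR adjusted p = 0.0898). TIMP2 passed in DESeq2 with the block (log2 fold change -1.09, adjusted p = 0.0129) and in edgeR without pair 9. RECK, a membrane-anchored inhibitor of metalloproteases, was at 688 ± 156 and 698 ± 214 CPM (log2 fold change 0.02, SE 0.17, adjusted p = 0.989), higher in 7 pairs and lower in 5. A2M, a broad protease trap in plasma and tissue, was at 5.06 ± 8.78 and 31.6 ± 39.2 CPM and higher in 10 of 12 pairs. It was removed by the filter, and in the fit on a mean of 5 counts its adjusted p was 0.0741, and 0.0186 with the block.

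Of the ADAMTS proteases related to ADAMTS12, none of the 3 tested passed the threshold. ADAMTS19 was at 123 ± 109 and 87.8 ± 63.1 CPM, and ADAMTS9 was at 36.3 ± 15.1 and 56.1 ± 26.5 CPM, higher in 9 of 12 pairs (log2 fold change 0.62, edgeR adjusted p = 0.581). ADAMTS4, an aggrecan-cleaving enzyme that TIMP3 inhibits, was at 37.4 ± 41.4 and 19.3 ± 12.9 CPM (log2 fold change -0.93, adjusted p = 0.512). ADAMTS2, which trims procollagen, was removed by the filter, at 13.0 and 7.52 CPM. The ADAMTS-like proteins ADAMTSL1 and ADAMTSL4, which carry no protease domain, had log2 fold changes of -1.58 (adjusted p = 0.255) and -1.12 (adjusted p = 0.269), and ADAMTSL1 passed in DESeq2 with the block (adjusted p = 0.0055) and in edgeR without pair 8, and ADAMTSL4 in edgeR without a filter on low counts (adjusted p = 0.0470).

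Of the ADAM proteases, the sheddase ADAM17, a target of TIMP3, was at 3.40 ± 3.52 CPM in normal stroma and 10.8 ± 9.56 CPM in AAS, higher in 10 pairs and lower in 0. Its counts averaged 8.08, with 6 of 24 samples at 0, and its mean in normal stroma lay near the floor (median 2.89 CPM). ADAM17 was removed by the filter, and in the edgeR fit on a mean of 5 counts its adjusted p was 0.521. ADAM15 was at 21.1 and 11.4 CPM (edgeR adjusted p = 0.686), and ADAM19, removed by the filter, at 14.3 and 6.81 CPM. PCOLCE, which enhances procollagen processing, was at 20.3 and 17.8 CPM (adjusted p = 0.979).

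The 1 gene of the protease and inhibitor lists that passed was SERPINF1, at 90.4 ± 50.0 CPM in normal stroma and 20.0 ± 14.8 CPM in AAS. It fell in AAS (log2 fold change -2.12, SE 0.43, edgeR adjusted p = 0.0025, and 0.0060 with the block), and was lower in 12 of 12 pairs. SERPINF1 encodes PEDF, a serpin known for blocking vessel growth and not as an inhibitor of proteases. The collagen-degrading cathepsin CTSK was at 81.6 ± 48.7 and 31.9 ± 23.3 CPM (log2 fold change -1.29, SE 0.37, edgeR adjusted p = 0.0600, and 0.0656 with the block), lower in 11 of 12 pairs. CTSK passed in 7 of 24 settings, among them DESeq2 (adjusted p = 0.0261, and 0.0052 with the block) and edgeR with the filter on a mean of 5 counts (adjusted p = 0.0488, and 0.0377 with the block). CTSF was at 187 ± 70.1 and 259 ± 100.2 CPM (adjusted p = 0.506), and the cysteine protease inhibitor CST3 at 242 ± 54.2 and 175 ± 38.9 CPM, lower in 12 of 12 pairs (log2 fold change -0.47, adjusted p = 0.190).

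SERPINE2, the serpin protease nexin, lay on the other side. It was at 71.3 ± 18.3 and 124 ± 55.6 CPM, higher in 11 of 12 pairs (log2 fold change 0.79, SE 0.23, edgeR adjusted p = 0.0804). HTRA1, a serine protease of the matrix, was at 76.7 and 53.4 CPM (edgeR adjusted p = 0.700), and the complement inhibitor SERPING1 at 69.2 and 32.2 CPM (adjusted p = 0.398). SERPING1 passed in DESeq2 with the block (adjusted p = 0.0042).

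A further list held partners and substrates of the members, and 12 of its 13 genes with an identifier were tested (10 negative, 2 positive, median log2 fold change -0.85). Of these, MMP14, TIMP2 and ADAMTS4 were also in the protease lists and are counted in both. Of the 12, 2 passed the threshold (16.7%), beside 3.78% of the 1853 tested genes with a symbol. Of those 1853, 51.9% were negative, and their median log2 fold change was -0.05. The basement membrane collagen gene COL4A2 rose from 27.8 ± 16.4 to 77.3 ± 47.0 CPM (log2 fold change 1.52, SE 0.40, edgeR adjusted p = 0.0352, and 0.117 with the block). Its neighbour COL4A1 was at 24.9 ± 39.5 and 94.6 ± 71.1 CPM, higher in 11 of 12 pairs (log2 fold change 1.95, adjusted p = 0.0887, and 0.0384 with the block). Of 12 fits that each left out 1 pair, COL4A1 passed only in the fit without pair 10 (log2 fold change 2.88, edgeR adjusted p = 0.00032). In the other 11 it did not pass, with an edgeR adjusted p of up to 0.243. EFEMP1, a fibulin that binds TIMP3, fell from 104 ± 53.4 to 31.3 ± 22.8 CPM (log2 fold change -1.73, SE 0.47, adjusted p = 0.0450, and 0.0533 with the block).

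COL4A2 lost its call without any 1 of 7 pairs, and EFEMP1 without any 1 of 8, so that both calls rest near the threshold. The fibrillar collagen gene COL1A2 was at 747 ± 562 and 286 ± 217 CPM and lower in 12 of 12 pairs (log2 fold change -1.36, edgeR adjusted p = 0.0532, and 0.0020 with the block). COL1A1 (log2 fold change -1.26, adjusted p = 0.301), COL3A1 (-1.03, adjusted p = 0.430) and the elastin gene ELN (-0.39, adjusted p = 0.895) did not pass. With the block COL1A1 had an adjusted p of 0.0938, and it passed with the block and the filter on a mean of 5 counts (edgeR adjusted p = 0.0223) and without a filter (adjusted p = 0.0170). LRP1, the endocytic receptor that clears MMP2 and TIMP3, was at 554 ± 144 and 375 ± 193 CPM (log2 fold change -0.57, adjusted p = 0.316), and KDR, the VEGF receptor that TIMP3 can bind, at 40.1 and 29.9 CPM (adjusted p = 0.850).

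**Figure D3:**
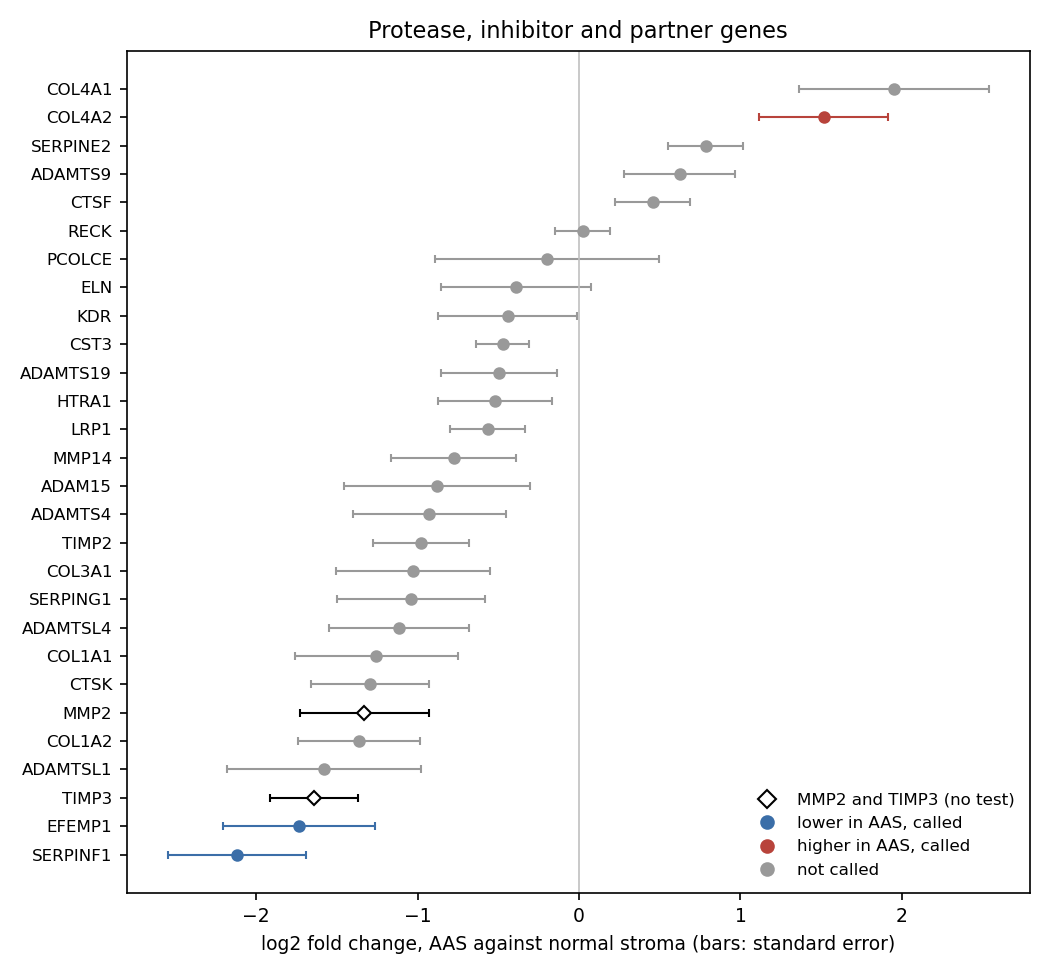
Log2 fold change of AAS against normal stroma (x axis, bars for standard error) for the protease, inhibitor and partner genes tested and reported here, 1 gene per line, in order of the fold change. SERPINF1 and EFEMP1 (blue, lower) and COL4A2 (red, higher) passed the threshold, grey genes did not, and open diamonds mark MMP2 at -1.33 and TIMP3 at -1.64, shown without a test.

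Whether MMP2 and TIMP3 varied together between dogs was asked within each group, on log2 CPM over 12 samples, as part of 12 relations computed. In normal stroma Pearson's r was 0.65 (permutation p = 0.0257, adjusted p = 0.136) and Spearman's rho 0.70 (permutation p = 0.0142, adjusted p = 0.0784), and r was 0.50 without the 2 dogs farthest from the median of MMP2. In AAS r was 0.28 (permutation p = 0.385, adjusted p = 0.661) and rho 0.12 (permutation p = 0.717, adjusted p = 0.787), and r was 0.14 without the 2 farthest. Neither passed the correction, and the difference between the groups was not tested. ADAMTS12 was above 0 in 6 normal and 9 AAS samples and was left out of these relations.

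The level of TIMP3 in normal stroma was then set against that in the AAS of the same dog, with r of 0.62 (permutation p = 0.0339, adjusted p = 0.136), rho of 0.67 (permutation p = 0.0196, adjusted p = 0.0784) and r of 0.44 without the 2 farthest dogs. For MMP2 r was 0.39 (permutation p = 0.216, adjusted p = 0.432) and rho 0.39 (permutation p = 0.206, adjusted p = 0.413), and r was 0.49 without the 2 farthest dogs. Neither relation passed.

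Storage of the block was the 1 relation in which a rank correlation passed. Block ages rest on the match of cases to pairs by order, which the study does not state. TIMP3 in normal stroma was lower in older blocks, with rho of -0.80 (permutation p = 0.0029, adjusted p = 0.0346) and r of -0.72 (permutation p = 0.0096, adjusted p = 0.115), and r was -0.76 without the 2 dogs farthest from the median age. Without pair 7 alone this r was -0.63 (adjusted permutation p = 0.396), and with pair 14 added it was -0.65 (adjusted permutation p = 0.220). In AAS TIMP3 gave r of -0.45 (permutation p = 0.143, adjusted p = 0.344) and rho of -0.40 (permutation p = 0.200, adjusted p = 0.413), and r of -0.29 without the 2 farthest. For MMP2 r was -0.47 in normal stroma (permutation p = 0.125, adjusted p = 0.344; rho -0.54) and 0.10 in AAS (permutation p = 0.759, adjusted p = 0.759; rho 0.15). Without the 2 dogs farthest in block age these were -0.20 and 0.08, and without pair 7 alone the value for MMP2 in normal stroma was -0.29. The plot against block age shows the decline in the blue TIMP3 points, and AAS points lie below them at every age at which a pair was sampled.

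Depth was set against the same levels. The log2 library size gave r of 0.61 with TIMP3 in normal stroma (permutation p = 0.0368, adjusted p = 0.0761 over 4 such relations) and rho of 0.65, and r of 0.60 with TIMP3 in AAS. With MMP2 r was 0.43 in normal stroma and 0.55 in AAS, where rho was 0.66 (permutation p = 0.0232, adjusted p = 0.0523). Without the 2 samples farthest in library size, r for MMP2 was 0.80 in AAS and 0.24 in normal stroma. For TIMP3 it was then 0.48 in AAS and 0.64 in normal stroma. None of these 4 relations passed the correction (adjusted permutation p of 0.0761 to 0.161 by r). Block age and depth were not separated, and their part in the levels was not tested. RNA quality, which the study reports for each sample, was not set against the levels. The age of the dog gave r between -0.25 and -0.13 in all 4 relations with MMP2 or TIMP3, with adjusted p of 0.661 to 0.754 by permutation. Without the 2 dogs farthest in age, 3 of the 4 turned positive (0.14 and 0.08 for MMP2 and TIMP3 in normal stroma, 0.04 for TIMP3 in AAS), and MMP2 in AAS gave -0.35.

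**Figure D4:**
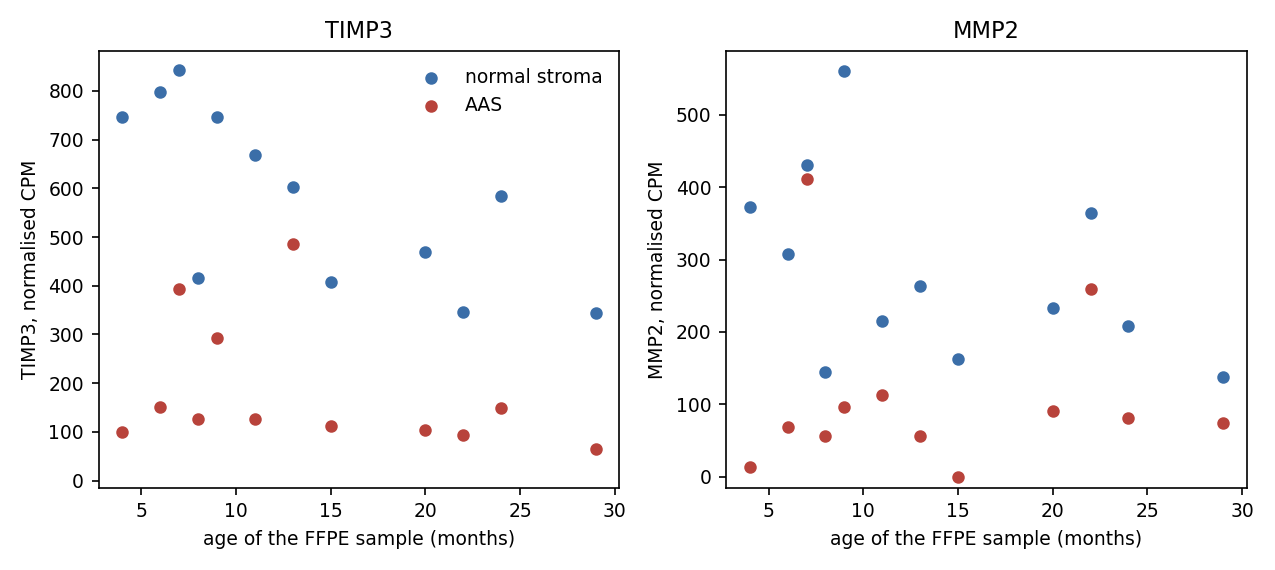
TIMP3 (left) and MMP2 (right) in normalised CPM (linear axes) against the age of the FFPE block in months, 1 point per sample, normal stroma in blue and AAS in red (n = 12 each). Normal stroma TIMP3 runs from 747 CPM at 4 months to 344 CPM at 29 months, and each AAS point lies below the normal stroma point of the same block.

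The tested genes with a symbol whose log2 CPM was most like that of each member, over 24 samples after the group means were removed, are given as a description. For MMP2 these were FBLN1 (r = 0.86), PLEKHM2 (0.86), LRP1 (0.85), DCN (0.82) and STOM (0.82), among 1852 genes. Within normal stroma r was 0.64, 0.39, 0.60, 0.71 and 0.38 for these genes in turn, and within AAS 0.89, 0.91, 0.90, 0.83 and 0.90, higher in AAS for each gene, where MMP2 had 0 and 7 counts in pairs 10 and 15. The difference between the groups was not tested. FBLN1 and DCN encode the matrix proteins fibulin-1 and decorin. TIMP3 ranked at 643 in this order, with r of 0.33.

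For TIMP3 the most similar were SPTBN1 (r = 0.79), OTUD6B (0.73), DPYSL3 (0.69), DPYD (0.69) and ZMPSTE24 (0.68), and no gene is shared with the list for MMP2. For ADAMTS12 they were TIA1 (0.66), KIF5B (0.66), DOCK8 (0.65), STK10 (0.65) and CBLB (0.63), with 9 of the 24 samples at 0 for ADAMTS12 itself. Samples also differ in depth and storage, which were not removed. ADAMTS12 gave r of 0.19 with MMP2 and -0.01 with TIMP3.

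Neighbouring genes could bear on the counts. In the RefSeq annotation of another dog assembly, UU_Cfam_GSD_1.0, TIMP3 overlaps the gene SYN3, and ADAMTS12 overlaps 2 long noncoding RNAs, while MMP2 overlaps no gene. The library kit keeps strand. Whether the counting used strand is not given in the sources used here, so reads of such partners in the TIMP3 and ADAMTS12 values cannot be told apart.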

How the data were processed

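The authors quantified RNAseq reads of laser-captured stroma with kallisto 0.44.0 using Ensembl dog transcripts (CanFam3.1) and added up transcripts by gene. They deposited estimated counts for 18466 genes and 26 samples, unnormalised, as whole numbers, so rounding changed none. No 2 samples were identical. Symbols came from readable parts of the study's gene tables, which pair 3294 identifiers with a symbol, more often for changed genes. The pair number marks 1 dog. Deviations from group means correlated at 0.125 on average within pairs and -0.00597 between pairs.

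Genes were filtered with filterByExpr, scaled by TMM and compared by quasi-likelihood F-tests in edgeR 4.0.16 (R 4.3.3) with Benjamini-Hochberg adjustment over 4544 genes, without a pair term, since the study's methods name none. CPM uses TMM library sizes, and log2 CPM a prior count of 2. Relations used 100000 permutations, 2-sided (scipy 1.17.1). The fit was tested on simulated data. Each dog gave 1 sample per group.

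Members, gene lists and tests were chosen with earlier results of these data known. Beside the members, the genes named were list genes called with or without the block, the 2 most abundant tested genes of each protease list, filtered list genes averaging 5 or more counts, and the 5 genes most like each member. Of the list genes, 1 is counted but not reported here. Other list and marker genes were named after their values were seen. Alternatives were the block, DESeq2 1.42.0, other scalings, filters, prior counts and pseudocounts, pair 14 added and each pair left out. The block with a filter on a mean of 5 counts, with pair 14 or without pair 7, library size and the fibroblast marker sum were added after seeing the data.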

Additional observations from a re-analysis of the deposited data

How the results depend on the processing

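The log2 fold change of MMP2 lay between -1.82 and -1.18 and that of TIMP3 between -1.90 and -1.52 over 23 alternatives. Leaving out 1 pair gave -1.68 to -1.18 for MMP2 and -1.87 to -1.55 for TIMP3. The mean paired difference of the MMP2 to TIMP3 log2 ratio reversed from -0.18 to 0.23 without pair 10, and the median of the pairs was 0.49. Leaving out 1 pair gave -0.33 to 0.23, and the value with the replicate block equals the mean paired difference, -0.18.

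Over all genes 82 passed (28 higher and 54 lower), 115 with the pair as a block (29 and 86), 134 with DESeq2, 227 with DESeq2 and the block, 153 with a filter on a mean of 5 counts, 183 with that filter and the block, and 71 to 99 without 1 pair. Without a filter on low counts 1690 passed, 1258 higher and 432 lower, and the split turned. In the protease, inhibitor and partner lists 3 of 27 tested genes passed (COL4A2, EFEMP1, SERPINF1), beside 82 of all 4544. With the block 3 of 27 passed (COL1A2, COL4A1, SERPINF1), beside 115 of 4544. DESeq2 called 5 of 27, beside 134 of 4544, and with the block 9 of 27, beside 227 of 4544. Without a filter 9 of 32 passed, beside 1690 of 18441. With a filter on a mean of 5 counts 5 of 32 passed, beside 153 of 7763. That filter with the block gave 7 of 32, beside 183 of 7763. Without 1 pair 1 to 4 of 27 or 28 passed, beside 71 to 99 of 4362 to 4929. Without pair 3, 5 or 12, 1 gene was left, SERPINF1. The causes were not tested. SERPINF1 passed in all 23 alternatives. None of the 12 relations passed by Pearson's r with permutation in the main setting, where 3 had an unadjusted p under 0.05 and 1 passed by Spearman's rho, or in any of the 5 alternatives.

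ADAMTS12 was at 0 in 6 normal and 3 AAS samples, and a count of 3 was worth up to 28.0 CPM. The biological coefficient of variation over all tested genes was 66.7%.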
